A study of Heterocephalus glaber with 6 samples.

Results

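Epidermis of wild-type naked mole-rats that had received DMBA and repeated TPA was compared with epidermis of the acetone-treated animals kept as controls for that regimen. The comparison used 4 of the 8 count libraries of the series, 2 from the DMBA/TPA group and 2 from its controls, taken by their group labels alone. All animals were 6 to 7 months old. In the DMBA/TPA group a single 100 µl dose of DMBA at 1 mg/ml was put on the back skin, TPA at 0.1 mg/ml was then applied there 2 times per week, and skin was taken on day 46. The control skin received acetone, the solvent of both agents, but the sources used here give neither its day of harvest nor the number of applications. The other 4 libraries, from DMBA alone on day 10 and from the acetone controls of that regimen, entered the fit for its estimate of spread and are given where a result was set against them. The 2 control libraries of each regimen are columns of 1 GEO sample, and nothing in the labels says that any library came from an animal of its own, so p-values measure only how far these libraries differ, a spread that may be technical.

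DMBA is a polycyclic aromatic hydrocarbon that skin cells convert to a form that binds DNA, and in mouse skin it serves as a tumour initiator. TPA is a phorbol ester that activates protein kinase C, and in mouse skin repeated doses drive keratinocyte proliferation, thickening of the epidermis and the outgrowth of initiated cells. The epidermis consists mainly of keratinocytes, which divide in the basal layer, move upward and make keratins and cornified envelope proteins in large amounts. Naked mole-rats are long-lived rodents in which tumours are rarely seen.

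Reads were counted for 33281 loci. The IDs of 16308 loci are in Ensembl format, and the other 16973 bear numbers of the kind that transcript assembly gives. No ID is paired with a gene symbol in the files, and 0 IDs matched the 42221 rows of the RefSeq table used here. The keratinocyte, immune and proliferation markers chosen for this tissue could therefore not be read, the epidermal label was not checked against them, and loci are described by abundance, ID class, direction and numbering. In bulk tissue, fewer cells of a type and less RNA per cell cannot be told apart. Total counts were 34537133 and 38124702 in the DMBA/TPA libraries and 24337164 and 24153238 in their controls, so the treated libraries were the deeper ones.

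The most visible change was in how unevenly the counts were spread over loci. In the DMBA/TPA libraries 50% of all counts came from 101 and 53 loci, against 389 and 431 loci in their controls, means of 77 ± 33.9 and 410 ± 29.7 (SD, n = 2 each). The DMBA libraries, with 186 and 255 loci, lay between these groups, and the DMBA controls, with 374 and 329, just below the DMBA/TPA controls. The 3 most abundant loci of each library held 27.1% and 31.6% of the counts in DMBA/TPA and 8.55% and 9.04% in its controls. The groups did not overlap in these measures, but 2 libraries against 2 cannot go below p = 0.33 in the exact two-sided permutation test, which is what each gave. Without the most abundant locus of the series the difference was smaller and still had no overlap, with 254 and 194 loci holding 50% of the remaining counts in DMBA/TPA and 448 and 497 in its controls.

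**Figure D1:**
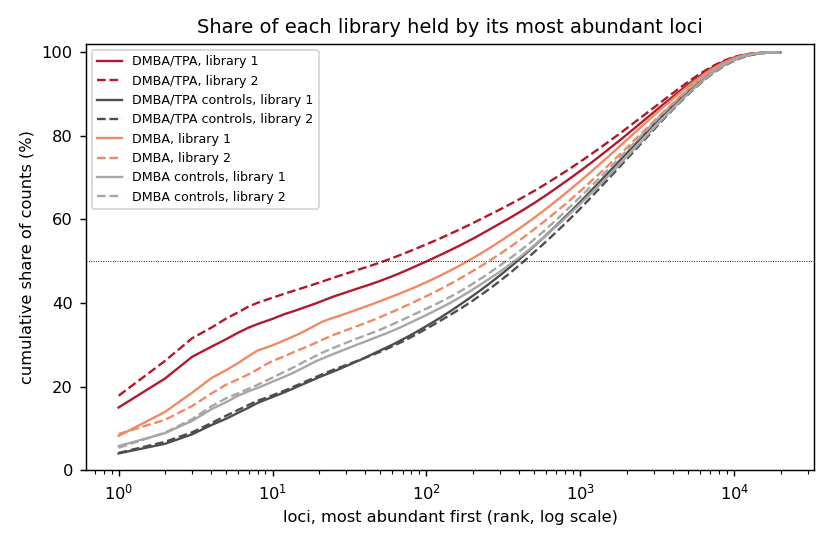
Cumulative share of counts (%, vertical axis) against loci ordered from the most abundant (rank, log axis), 1 line per library and the dotted line at 50%. The DMBA/TPA lines lie above the rest over the most abundant loci and cross the dotted line at 101 and 53 loci, against 389 and 431 in the DMBA/TPA controls.

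Fewer loci were seen in DMBA/TPA than in its own controls, although the DMBA/TPA libraries were deeper. At least 1 count was found for 19419 and 19424 loci in the DMBA/TPA libraries and for 19911 and 20245 loci in their controls (exact two-sided permutation test, p = 0.33, the smallest possible). Scaled by exact rarefaction to the 24153238 counts of the shallowest of these libraries, the expected numbers were 19291 and 19250 in DMBA/TPA and 19909 and 20245 in its controls. With a minimum of 10 counts they were 16773 and 16802 in DMBA/TPA and 17157 and 17528 in its controls. The DMBA libraries, with 19633 and 19859 loci of at least 1 count, lay between these groups. With at least 10 counts they had 16928 and 17180 loci, the second above the first DMBA/TPA control. The DMBA controls stood nearer to DMBA/TPA in this measure, with 19564 and 19525 loci of at least 1 count and 16932 and 16994 of at least 10 counts. The second of them had 19487 loci after rarefaction to the same depth. The first held 22852358 counts, fewer than that depth, so it could not be rarefied to it and its number is not at the common depth.

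The comparison itself asks which transcripts differed in the epidermis after DMBA and repeated TPA. Of the 18422 loci left after low-count filtering, 2668 rose and 2218 fell in DMBA/TPA relative to its controls, 14.5% and 12.0% of those tested and 26.5% in all (edgeR quasi-likelihood test, Benjamini-Hochberg adjusted p below 0.05). The loci that rose had a median log2 fold change of 1.07 and those that fell one of -1.26, beside -0.04 over all loci tested. The loci that rose accounted for 50.9% and 55.2% of all counts in the DMBA/TPA libraries and 21.2% and 22.0% in their controls. Those that fell held 8.06% and 6.90% in DMBA/TPA and 24.9% and 22.0% in its controls. These shares describe lists chosen on the same libraries and support nothing by themselves.

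How many loci rose depended on the scaling of the libraries, since a scaling moves every locus together. Over all tested loci the log2 fold change had a median of -0.04 with TMM, -0.19 with upper-quartile scaling, -0.52 with total counts alone and -0.04 with DESeq2's own size factors. Of the called loci 54.6%, 40.3%, 16.7% and 52.5% were higher in these settings, in the same order. Loci called in the same direction in all 4 numbered 1035 higher and 2195 lower, 5.62% and 11.9% of those tested. The first list kept few small changes, with 12 of 1035 under 2-fold, while the second held 682 of 2195 under 2-fold.

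**Figure D2:**
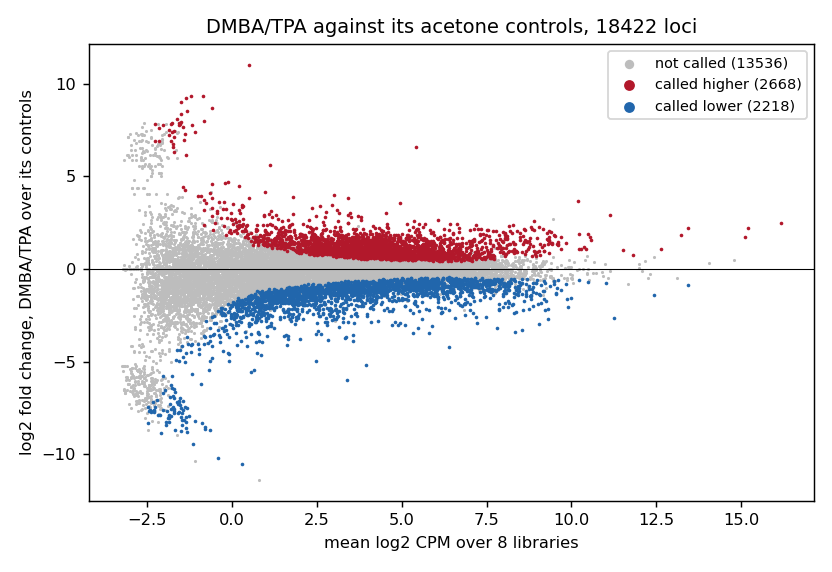
Log2 fold change of DMBA/TPA over its controls (vertical axis) against mean log2 CPM over the 8 libraries (horizontal axis), 1 point per tested locus. The 2668 loci called higher are red and the 2218 called lower blue, and the widest spread is at the left, among the loci of lowest abundance.

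Most called changes were moderate in size. Changes of 2- to 4-fold were called for 1266 loci that rose and 1083 that fell, and changes of 4- to 8-fold for 162 and 272. Past 8-fold there were more losses than gains, with 34 higher and 66 lower between 8- and 16-fold and 47 higher and 112 lower above 16-fold. In 35 of those 47 and 73 of those 112 a group had no counts, so their fold is not measured. Tested against a minimum change of 2-fold with edgeR's glmTreat, 227 loci rose and 172 fell. The smallest absolute log2 ratio among the 4 pairs of a DMBA/TPA and a control library had a median of 0.87 for the loci that rose. It was 0.98 for those that fell, beside 0.34 over all tested loci. The called loci were chosen on these same libraries.

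**Figure D3:**
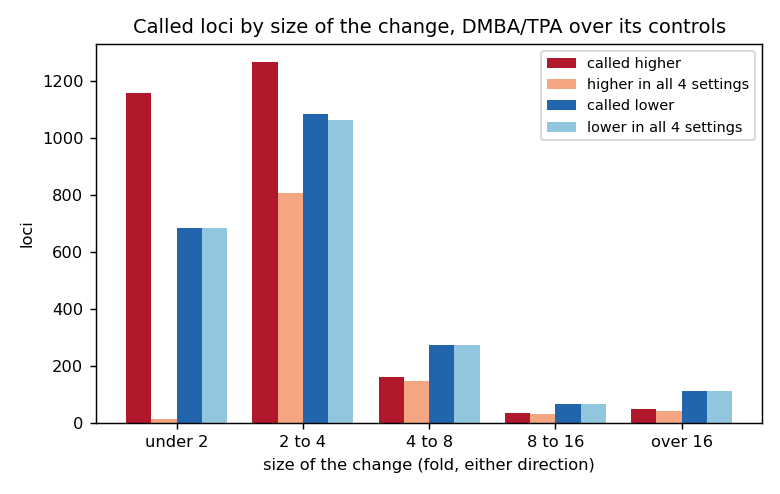
Number of called loci (vertical axis) by size of the fitted change in DMBA/TPA relative to its controls (fold, horizontal axis), for all calls and for calls shared by the 4 settings. Under 2-fold, 12 of the 1159 loci called higher and 682 of the 685 called lower kept their call in all 4 settings.

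The direction of change differed along the range of abundance. Among loci with a mean of 3 to 6 log2 CPM, 1630 rose and 802 fell, 23.9% and 11.8% of the 6814 tested in that class. Among loci of 0 to 3 log2 CPM the order was turned, with 541 higher and 835 lower of 5431. Above 9 log2 CPM, 49 rose and 33 fell of 169 loci, the class with the largest called share in both directions. Restricted to calls shared by the 4 settings, more loci fell than rose between 3 and 6 log2 CPM as well, 802 against 575. The shared list can hold no more rises than the 1036 called over all loci with total counts alone. The turn to an excess of falls therefore rests on that scaling and is no result on the choice of tool. DESeq2 called 2919 loci higher and 2638 lower in all. Above 9 log2 CPM the shared rises were still the more numerous with 39 against 33.

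The shares of assembled and Ensembl-format loci that were called are given by abundance class, without a test of their difference. They were 27.3% of assembled and 20.1% of Ensembl-format loci between 0 and 3 log2 CPM, and 38.0% and 25.4% between 3 and 6. Under 0 log2 CPM they were 5.79% and 5.45%. Each class spans a range of abundance within which the ID formats were not matched. Only 37 tested Ensembl-format loci lay between 6 and 9 log2 CPM and 0 above 9, so the most abundant transcripts of this epidermis were all counted under assembled IDs.

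The order of the abundant loci changed as well. Of the 50 loci with the highest mean CPM in DMBA/TPA, 30 were also among the 50 highest in its controls. The 20 that entered stood at a median rank of 139 and as low as rank 385 in the controls, and 17 of them were called higher, beside 14.5% of all tested loci. The 20 that left stood at a median rank of 99 and as low as 628 in DMBA/TPA, and 12 of them were called lower, beside 12.0%. Loci that change places in this order had to differ, so these counts describe them and are no test. Ranks were taken on counts that are not divided by transcript length, so they order counts and not molecules.

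Some loci had counts in only 1 of the groups, most of them few, with at most 8.94 CPM. At least 10 counts in both DMBA/TPA libraries and 0 in both controls were found for 68 loci, with a median of 0.654 CPM in DMBA/TPA. Set against a floor of 3 counts per control library, they were at least 6.06-fold higher at the median. Of these loci 56 passed the low-count filter and 30 were called higher, beside 14.5% of all tested loci. The reverse pattern held for 131 loci, with a median of 0.727 CPM in the controls, which were at least 7.23-fold lower in DMBA/TPA at the median against the same floor. All 131 passed the filter and 65 were called lower, beside 12.0% of all tested loci. A locus at 0 in a group had to differ to be listed, so neither count is read as a result. Of the 68 loci, 23 were also at 0 in both DMBA controls and 13 had at least 10 counts in both, while 16 of the 131 had at least 10 counts in both DMBA controls. The minimum of 10 counts was chosen after the counts were seen.

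MSTRG.822, an assembled locus and the most abundant in every library, was also the most abundant that rose. It had 174471 and 226654 CPM in the DMBA/TPA libraries and 36064 and 34656 CPM in their controls. Both DMBA/TPA libraries lay above all acetone libraries, since the DMBA controls had 50425 and 50855 CPM. The change was 2.50 on the log2 scale, with 0.258 as its standard error (edgeR adjusted p = 0.000781), and it was called higher in all 19 alternatives, with log2 fold changes between 1.99 and 2.68. After DMBA alone it stood at 87166 and 86969 CPM.

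MSTRG.14369 had the largest rise among loci of at least 2 log2 CPM chosen by the matching rule for rises. It had 232.0 and 135.7 CPM in the DMBA/TPA libraries and 2.00 and 1.81 CPM in their controls. The DMBA controls, at 71.4 and 91.1 CPM, were far above the DMBA/TPA controls and not far below the treated libraries. Its log2 fold change of 6.59 (standard error 0.353, edgeR adjusted p = 0.000136) was 1.18 against the DMBA controls (edgeR adjusted p = 0.0238). With all 4 acetone libraries as controls it was 2.14 and the call was lost (edgeR adjusted p = 0.34, the highest value over 19 alternatives).

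**Figure D4:**
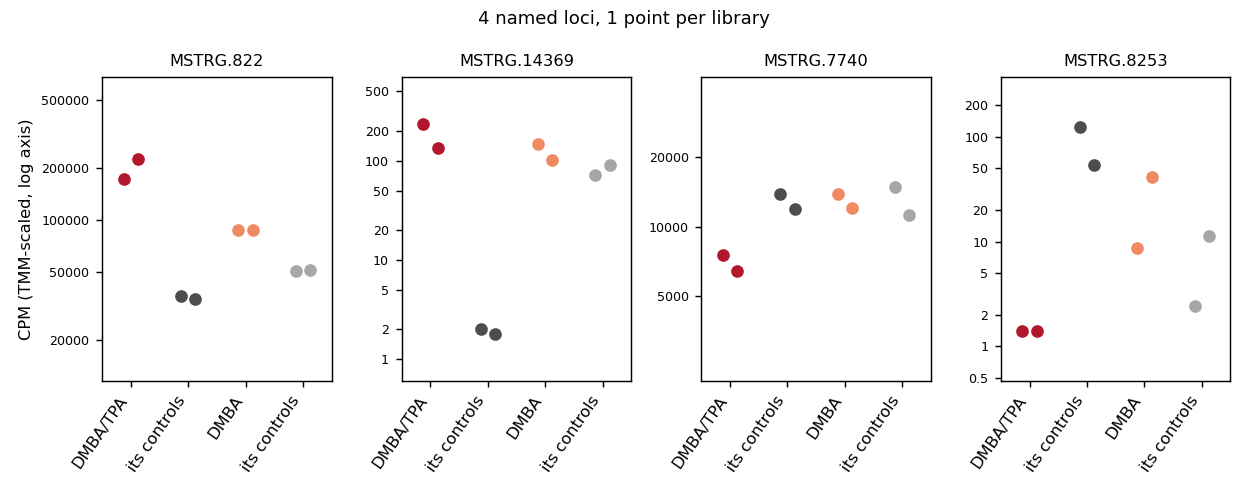
CPM after TMM scaling (log axis) of the 4 named loci, 1 point per library, for DMBA/TPA, its controls, DMBA and its controls from left to right. For MSTRG.822 and MSTRG.7740 the acetone libraries lie together on 1 side of DMBA/TPA, while for MSTRG.14369 and MSTRG.8253 the sets of acetone controls stand far apart from each other.

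MSTRG.7740 was the most abundant locus that fell. It had 7506 and 6450 CPM in the DMBA/TPA libraries and 13803 and 11894 CPM in their controls. All 6 other libraries lay between 11276 and 14786 CPM, with no overlap with DMBA/TPA. For the 4 acetone libraries this was a condition for naming the locus, as was a call in each of the 4 scaling and tool settings. The change was -0.88 on the log2 scale, with 0.239 as its standard error (edgeR adjusted p = 0.0245). It was below 0 in all 19 alternatives, from -1.35 to -0.77, and the call was lost in 7 of them, among these each of the 4 fits without 1 of the compared libraries (highest edgeR adjusted p of these 4 = 0.188).

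MSTRG.8253 had the largest fall among loci of at least 2 log2 CPM that were called in all 4 settings and lay below all acetone libraries. It had 1.41 and 1.40 CPM in the DMBA/TPA libraries, from 42 counts in each, and 123.6 and 53.9 CPM in their controls. The DMBA controls, at 2.41 and 11.4 CPM, lay above the treated libraries and below the DMBA/TPA controls. The change was -5.97 on the log2 scale, with 1.09 as its standard error (edgeR adjusted p = 0.00907), against -2.30 relative to the DMBA controls, where it was not called (edgeR adjusted p = 0.179).

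Both DMBA/TPA libraries were above all 4 acetone libraries for 2402 of the 2668 loci that rose, and below all 4 for 1828 of the 2218 that fell, beside 23.9% and 24.1% of all tested loci. The remaining 266 and 390 loci did not lie beyond at least 1 DMBA control library. In mean CPM the DMBA controls lay above the DMBA/TPA controls at 86.4% of the loci that rose, and below them at 81.7% of those that fell. That is the side on which DMBA/TPA lay, and how near to DMBA/TPA they came was not counted. The DMBA/TPA controls differed from the DMBA controls by a median of -0.36 on the log2 scale at the loci that rose and 0.38 at those that fell, beside 1.07 and -1.26 for DMBA/TPA over its own controls. The loci were chosen for their distance from the DMBA/TPA controls, a choice that favours this side for any other acetone set. These shares and medians are therefore a description with no test.

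Loci with adjacent numbers changed together more often than distant ones. The assembled IDs carry running numbers, and the sources used here do not say whether these follow the genome. Among 1147 pairs of consecutive numbers with both loci called, 64.2% had the same direction. At a distance of 2 numbers it was 56.7% of 1089 pairs, at 5 numbers 52.0% of 1055 and at 500 numbers 51.3% of 965. The share given by the mix of directions alone, with 54.5% of the called assembled loci higher, is 50.4%. Neighbouring pairs share loci, and adjacent IDs can be pieces of 1 transcript or loci that share reads, so the pairs are not independent and no test is given.

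The longest unbroken runs were among rises. A run of 18 consecutively numbered loci rose as a whole, and a second run of 14 began 146 numbers after the end of the first. The longest run of falls had 6 loci, and runs of at least 5 loci numbered 6 for rises and 3 for falls. In the run of 18 the log2 fold changes lay between 0.88 and 2.42 with a median of 1.68 (edgeR adjusted p from 0.000749 to 0.0397), and mean levels over the 4 compared libraries ranged from 6.49 to 377.1 CPM.

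Summed over the 18 loci, the level was 2548 and 2519 CPM in the DMBA/TPA libraries and 810.3 and 654.8 CPM in their controls. The DMBA libraries, at 1820 and 1787 CPM, and the DMBA controls, at 1509 and 999.7 CPM, lay between these groups. The sum for the run of 14 was 733.9 and 734.3 CPM in DMBA/TPA and 236.6 and 191.9 CPM in its controls. It was 521.7 and 481.3 CPM in the DMBA libraries and 405.0 and 324.0 CPM in the DMBA controls. In both runs these sums agreed closely between the DMBA/TPA libraries and did not overlap with any acetone library. All 2668 loci called higher lay above both DMBA/TPA controls, so sums over them had to lie above these controls. Being called in the same libraries also favours agreement between the DMBA/TPA libraries, so the sums are a description only. Locus by locus, 16 of the 18 and 14 of the 14 had both DMBA/TPA libraries above all 4 acetone libraries. The same held for 2402 of all 2668 loci called higher and for 23.9% of all tested loci. Most loci called higher had this property, so it is not read as a trait of the runs.

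Of the 18 loci, 16 were called higher in all 4 scaling and tool settings, 16 with all acetone libraries as controls and 12 against the DMBA controls. Of the 14 loci, 12, 12 and 9 were. Over all 18422 tested loci it was 5.62% in all 4 settings, 2019 loci with all acetone libraries and 1412 against the DMBA controls. Every member of the runs was already called in the main fit, which favours these calls. The runs were picked for their length after the calls were made, so they carry no test of their own. Whether each is 1 fragmented gene, a cluster of genes or a technical unit was not tested.

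**Figure D5:**
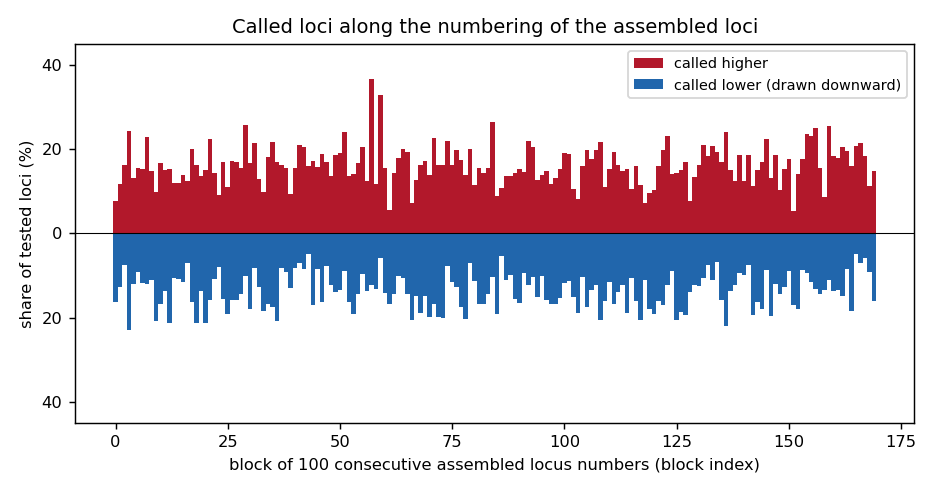
Share of tested assembled loci called higher (red, upward) and lower (blue, drawn downward) in DMBA/TPA, in 170 blocks of 100 consecutive locus numbers (horizontal axis, block index). The highest bars, 36.7% and 32.9% higher, are the blocks that hold the runs of 18 and 14 loci, and the next highest block reached 26.4%.

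The effect of DMBA/TPA was also tested against that of DMBA alone, as the difference between the changes each regimen showed relative to its own controls. It was called above the DMBA effect for 382 loci and below it for 562, 2.07% and 3.05% of those tested (edgeR quasi-likelihood test, Benjamini-Hochberg adjusted p below 0.05). MSTRG.822 rose more in DMBA/TPA, with a difference of 1.72 in log2 fold change, 0.348 being its standard error (edgeR adjusted p = 0.0278), while its own change after DMBA was 0.78 (edgeR adjusted p = 0.151). The call was lost in 10 of 18 alternatives, among them each fit without 1 of the DMBA/TPA libraries or of their controls (edgeR adjusted p from 0.0911 to 0.157) and each without 1 DMBA control (edgeR adjusted p = 0.0733 and 0.0696). With the control sets exchanged the difference was 0.69 (edgeR adjusted p = 0.442, the highest of the 18). The difference for MSTRG.7740 was -0.87 with a standard error of 0.336 and was not called (edgeR adjusted p = 0.168). The numbers of called differences moved with the library left out, in fits where a group then holds 1 library. They fell in both directions without either DMBA/TPA library or any control library of either regimen. Without the first DMBA library they rose in both directions, and without the second there were more above and fewer below. Loss of a library and the part played by that library were not told apart. Treatment and day of harvest change together between the regimens and cannot be told apart.

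The spread between libraries was small in the compared groups, with a biological coefficient of variation of 19.1% within DMBA/TPA and 19.5% within its controls, against 32.5% within DMBA and 28.5% within the DMBA controls. When the fit held no other groups than these 2, 3825 loci rose and 3361 fell. Without 1 of the compared libraries fewer were called, and 675 loci rose and 333 fell in each of these 4 fits, 3.66% and 1.81% of those tested. Without the first control library the calls were fewest, at 825 higher and 484 lower, and without the second they were 1178 and 901. They were 1250 and 707 without the first DMBA/TPA library and 989 and 498 without the second. In these fits a group holds 1 library, which is assumed to vary like the other groups.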

How the data were processed

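Epidermis was freed from dermis with dispase, and its RNA went into directional libraries after removal of ribosomal RNA, per the labels' protocols. The deposited values are raw counts per gene ID, whole numbers whose totals differ between libraries. Per the submitters' processing notes, TopHat2, Bowtie2, cutadapt and FastQC were used, with no versions stated. The sources used here name no build, annotation, counting tool or strand setting, so reads of overlapping, antisense or near-identical loci may be split or shared.

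Each of the 8 count columns was taken as 1 library. Library pairs were checked for duplication (chi-square per degree of freedom 35.0 in DMBA/TPA and 26.3 in its controls, over loci whose 2 counts summed to 20 or more), and neither pair agreed within sampling noise. The fit over the whole table used edgeR 4.0.16 (R 4.3.3): filterByExpr (minimum count 10, minimum total 15), TMM scaling and 1 robust quasi-likelihood fit of 4 groups with 4 residual degrees of freedom. A standard error is the absolute log2 fold change over the root of the F statistic. Log2 CPM used a prior count of 2, and CPM are after TMM scaling. Library values were compared by exact permutation tests in scipy 1.17.1. The procedure was tested on simulated data in which all libraries shared 1 rate per locus, except at loci changed in DMBA/TPA. The simulated control sets did not differ from each other, so that test does not cover the difference seen between the acetone sets. The floor of 3 counts covers counting error only.

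Named loci were, in each direction, the most abundant locus and the one with the largest log2 fold change at a mean of at least 2 log2 CPM, among those called in all 4 settings (TMM, upper-quartile and total-count scaling in edgeR, and DESeq2 1.42.0) with both DMBA/TPA libraries beyond all 4 acetone libraries. Members, lists and rules were chosen with earlier results of these data known. Marker lists fixed by symbol could not be used.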

Additional observations from a re-analysis of the deposited data

Results flagged for a closer look

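The change in DMBA/TPA relative to its controls differed from the change in DMBA relative to its controls, by the test of the difference itself, for 382 loci above and 562 loci below the DMBA effect. The difference was called for 3 of the 4 named loci (edgeR quasi-likelihood test, Benjamini-Hochberg adjusted over all loci). For MSTRG.822 the difference was 1.72 on the log2 scale (edgeR adjusted p = 0.0278). Both DMBA/TPA libraries lay above every other library, which for the acetone libraries was a condition for naming the locus. The call of the difference was lost in 10 of 18 alternatives, with 0.69 when the control sets were exchanged (edgeR adjusted p = 0.442). The difference was 5.97 for MSTRG.14369 (edgeR adjusted p = 0.00185). There the acetone sets themselves differed by -5.41 on the log2 scale, DMBA/TPA controls over DMBA controls (edgeR adjusted p = 0.000569). With the control sets exchanged the difference turned to -4.85 (edgeR adjusted p = 0.00529). It was -7.83 for MSTRG.8253 (edgeR adjusted p = 0.0302), where the acetone sets differed by 3.68 (edgeR adjusted p = 0.133). This call too was lost in 10 of 18 alternatives, with -0.48 when the control sets were exchanged (edgeR adjusted p = 0.931).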

How the results depend on the processing

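The values below give loci called higher and then lower in DMBA/TPA relative to its controls, beside 2668 and 2218. They were 1229 and 709 at an adjusted p below 0.01, 227 and 172 when tested against a minimum change of 2-fold, 462 and 430 with the columns of each control sample summed, 1412 and 1042 against the DMBA controls, 3825 and 3361 with only the compared groups in the fit, and 1036 and 5159 when libraries were scaled by total counts alone. With 1 library left out they ranged from 825 to 3563 and from 484 to 2984. The causes were not tested beyond what fewer libraries or a stricter threshold give by construction.

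For the difference from the DMBA effect, beside 382 above and 562 below, the counts were 821 and 990 with DESeq2, 25 and 90 at an adjusted p below 0.01, 43 and 34 with all acetone libraries as 1 control group, 5 and 43 with control columns summed, 20 and 14 with the control sets exchanged, 18 and 100 against a minimum of 2-fold, 150 and 912 with total counts, and from 4 to 1261 and from 38 to 1230 with 1 library left out. The lowest of these, 4 and 38, came without the second DMBA/TPA library. The difference for MSTRG.14369 turned to -4.85 with the control sets exchanged, and that for MSTRG.822 lost its call in 10 of 18 alternatives without changing sign. For MSTRG.8253 the difference lost its call in 10 of 18, and its fold change in 3 of 19.

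The number of loci that hold 50% of the counts, and the number with at least 1 count, were lower in DMBA/TPA in all 6 alternatives each, with differences from -357 to -248.5 and from -823.5 to -489.5 loci. The share of consecutive pairs with the same direction lay between 60.0% and 88.9% over 20 alternatives, added after seeing the data. The highest, tested against a minimum change of 2-fold, rests on 27 pairs. The share that the mix of directions gives also moves with the setting and was worked out for the main fit only. With total counts alone, where 16.7% of all called loci were higher, the share of pairs was 79.3%. The range is therefore not to be read against 50.4% alone. The treated samples of both regimens carry the numbers 1 and 2, and deviations of same-numbered libraries did not correlate (r = -0.0001 across loci). With 2 libraries per group this cannot show whether the number pairs them. A replicate block that marked only the treated libraries numbered 2 was added to the fit. The change over controls then refers to the treated level of number 1 and is not a group change adjusted for pairing. With this block 2363 loci rose and 2117 fell, and 354 differences were above and 509 below. MSTRG.7740 lost its call, with a log2 fold change of -0.78 against -0.88 in the main fit.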
